A study of Rattus norvegicus with 23 samples.

Results

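Heat shock proteins and DnaJ proteins were examined in the dorsal hippocampus of young and old rats, with and without hippocampal overexpression of FKBP1b, a small protein that limits calcium release from intracellular stores. The chaperones were all probe sets of the array with a single gene symbol of the Hsp90, Hspa, Hsph, Hspb, Hspd, Hspe, Dnaja, Dnajb or Dnajc series. They numbered 71 of 29211 probe sets and stand for 62 genes. Of these, 67 probe sets of 58 genes reached an unlogged signal of 40 or more on 4 or more arrays and were tested. Dnajb7, Dnajb8, Dnajc5g and Hspb7 stayed under that minimum, with signals of 10 to 36.

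RNA of 23 male F344 rats was measured on 1 Affymetrix Rat Gene 1.0 ST array per animal. Young controls (YC, n = 6) were 5 to 6 months old; the study's methods give them no injection, whereas the labels call them sham. The other 17 rats were 21 months old and had received an adeno-associated virus (AAV2/9), driven by a CaMKII promoter that acts in excitatory neurons, in the CA1 region of both sides at 2 µl per side. Aged controls (AC, n = 5) carried eGFP at 1.86e13 GC per ml, and short-term (ST, n = 6) and long-term (LT, n = 6) rats carried FKBP1b at 1.99e12 GC per ml. The labels place the injection at 18 months of age in AC, 18 in ST and 12 in LT, with 3, 3 and 9 months of exposure, and the design text places it at 13, 19 and 13 months. Age, surgery and vector therefore cannot be told apart between AC and YC, nor can transgene and titer between AC and the FKBP1b groups. ST and LT rats on the arrays had been selected for high FKBP1b expression, and all rats had been trained in a water maze.

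Molecular chaperones bind unfolded proteins and help them fold, refold or pass to degradation. Hsp70 proteins bind and release their clients in a cycle driven by ATP, DnaJ proteins bring the clients and switch on the ATPase through a J domain, and Hsp90 finishes the folding of kinases and receptors. Small heat shock proteins hold unfolded proteins without ATP, and the chaperonin Hspd1 with its lid Hspe1 folds proteins inside mitochondria. In stressed cells heat shock factor 1 (Hsf1) binds heat shock elements, repeated inverted GAA units in the promoters of many of these genes, and chaperones of the endoplasmic reticulum respond through a separate element.

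The promoters shown first are those of Hspb1, Hspe1 and Hspa8. Each has a probe set that differed between old and young rats and holds a heat shock element before the start of the gene. For Hspa8 only 1 of its probe sets differed, in AC alone and close to the threshold, and its brightest did not. The sequences are the 250 bases before the start in RefSeq's GRCr8 assembly, at chr12:26432302-26432551 on the minus strand for Hspb1, at chr9:64084077-64084326 on the plus strand for Hspe1 and at chr8:50080264-50080513 on the plus strand for Hspa8. Capitals mark every stretch that fits GAANNTTC or TTCNNGAA, 2 inverted units, or the longer element of 3 units that such stretches form when they overlap.
Hspb1: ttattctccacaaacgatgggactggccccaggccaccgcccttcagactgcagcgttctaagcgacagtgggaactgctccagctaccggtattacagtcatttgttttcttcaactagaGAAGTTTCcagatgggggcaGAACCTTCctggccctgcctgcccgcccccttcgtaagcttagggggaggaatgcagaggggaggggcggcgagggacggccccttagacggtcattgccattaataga
Hspe1: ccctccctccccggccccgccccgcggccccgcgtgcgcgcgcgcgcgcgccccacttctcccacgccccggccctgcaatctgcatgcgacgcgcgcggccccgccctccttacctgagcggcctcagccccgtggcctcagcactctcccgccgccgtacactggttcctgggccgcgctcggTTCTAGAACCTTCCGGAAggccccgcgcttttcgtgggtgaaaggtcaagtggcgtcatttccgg
Hspa8: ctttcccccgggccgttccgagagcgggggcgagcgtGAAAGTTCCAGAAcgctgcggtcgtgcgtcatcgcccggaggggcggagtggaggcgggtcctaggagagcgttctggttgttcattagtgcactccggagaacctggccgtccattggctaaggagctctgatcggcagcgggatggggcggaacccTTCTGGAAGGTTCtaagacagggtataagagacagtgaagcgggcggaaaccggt
Hspb1 held 2 separate short elements and no element of 3 units, Hspa8 held 2 elements of 3 units, beginning 213 and 55 bases before its start, and in Hspe1 a pair of such elements overlapped.

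Over the family, 50 of the 62 genes had a promoter of 300 bases in the RefSeq table (250 before and 50 after the start). The short element was present in 16 of the 50, or 32%, and in 15.9% of all 33469 promoters searched in the same way. The element of 3 units (GAANNTTCNNGAA or TTCNNGAANNTTC) was present in 5, those of Dnaja1, Hspa8, Hspd1, Hspe1 and Hsph1, or 10%, and in 0.798% of all promoters. That of Dnaja1 lies after the start and the others before it. The endoplasmic reticulum stress element (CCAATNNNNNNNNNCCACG or its reverse complement) was present in 3, those of Dnajc3, Hsp90b1 and Hspa5, or 6%, and in 0.0657% of all. The Hspd1 elements are those printed for Hspe1, read on the other strand. The sites of the other genes are shown to let the elements be compared, with 8 bases on each side and the element in capitals, in GRCr8.
Dnaja1, chr5:60638405-60638433, plus strand: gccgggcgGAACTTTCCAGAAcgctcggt
Hsph1, chr12:10427324-10427352, plus strand: gccgcagaTTCTGGAAAGTTCtcctcagt
Hspa5, chr3:38452965-38452999, plus strand: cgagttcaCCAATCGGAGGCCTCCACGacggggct
Dnajc3, chr15:102432526-102432560, plus strand: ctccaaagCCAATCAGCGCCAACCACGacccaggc
Hsp90b1 (the first of 2), chr7:23012443-23012477, minus strand: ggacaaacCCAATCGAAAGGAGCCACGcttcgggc
Hsp90b1 (the second, in the opposite orientation), chr7:23012339-23012373, minus strand: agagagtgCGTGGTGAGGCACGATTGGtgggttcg
A match of letters is a description of the sequence, and binding was not measured in these samples.

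**Figure D1:**
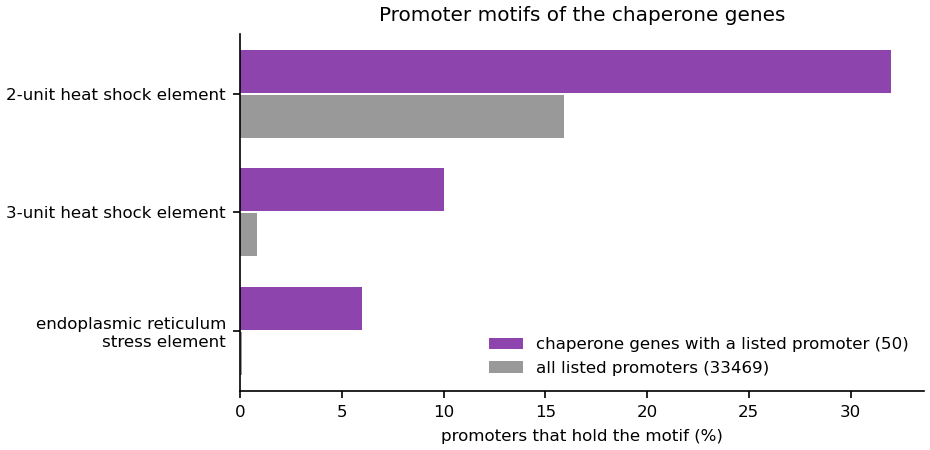
Share of promoters (%, horizontal axis from 0) that hold each motif, for the 50 chaperone genes with a listed promoter and for all 33469 listed promoters. The bars for the chaperone genes stand at 32%, 10% and 6%, against 15.9%, 0.798% and 0.0657% for all promoters.

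All 11 markers of hippocampal excitatory neurons and all 9 of interneurons passed the signal minimum. So did all 10 endothelial markers and 13 of 14 choroid plexus markers, so passing it does not identify the tissue. The arrays were not alike in their cell type markers. Choroid plexus genes were high on 4 arrays, AC replicate 3, AC replicate 4, LT replicate 2 and LT replicate 5, with list scores (mean log2 signal of the 13 measured markers, centered per gene) of 2.56 to 3.09 against -1.03 to 0.54 elsewhere. AC replicate 5 had the highest microglia score, 0.92, and the lowest scores for excitatory neurons, -0.35, and oligodendrocytes, -0.48. Its RNA integrity number, 8.9, was the lowest of the 23, shared with LT replicate 3. Among the 58 chaperone genes, AC replicate 5 held the highest of all 23 signals for 8 genes and the lowest for 8 others. Each count was matched by another array: LT replicate 2 held the highest for 8 and AC replicate 3 the lowest for 8.

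Aging was examined first, as AC against YC and as the mean of the 3 old groups against YC. By limma, with p values adjusted over all 13339 tested probe sets, 3 of the 67 chaperone probe sets differed between AC and YC, or 4.48% against 9.75% of all tested probe sets. Hspb1 rose (1 higher, against 5.56% of all), and Hspa4l and 1 of the 8 Hspa8 probe sets fell (2 lower, against 4.18% of all). Against the mean of the old groups 3 probe sets differed, those of Hspb1, Hspe1 and Dnajb2, all higher with age, against 8.55% of all in either direction and 5.34% higher. Dnajc16 fell just short of the threshold in the other direction (-0.074, limma adjusted p = 0.053). It passed as lower with array medians made equal, quantile normalization, a signal minimum of 100, the one-way analysis with LSD, the robust variance trend, array weights or a replicate block. The F test across the 4 groups called only Hspb1, against 5.46% of all. At an unadjusted p under 0.05, 21 of the 67 differed between AC and YC (31.3%, against 27.4% of all), 7 higher and 14 lower, where 13.7% of all were higher and 13.7% lower. These are counts of probe sets and not of separate genes. The 67 include the 8 Hspa8 probe sets, which moved together and were all lower in AC. The 7 higher include both Dnajb12 probe sets, whose values were identical.

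Hspb1 (probe set 10761128) encodes Hsp27, a small heat shock protein that protects actin filaments and is made in vascular cells and glia as well as in stressed neurons. Its signal was 47 on the lowest, 53 at the median and 71 on the highest YC array, and 74, 69, 86, 94 and 120 on the 5 AC arrays. It ran from 63 through a median of 76 to 84 in ST, and from 61 through 65 to 85 in LT. Thus 4 of 5 AC arrays and 4 of 6 ST arrays lay above every YC array, whereas in LT only 2 did. The YC mean was 56.3 ± 9.22 (SD, n = 6) and the AC mean 88.6 ± 20.1 (SD, n = 5). The ST mean was 74.2 ± 7.25 and the LT mean 69.0 ± 8.97 (SD, n = 6 each).

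Hspb1 was 0.64 higher in AC than in YC on the log2 scale (standard error 0.13, 95% interval 0.38 to 0.90, limma adjusted p = 0.0040). The mean of the old groups was 0.45 above YC (standard error 0.098, adjusted p = 0.0074). ST was 0.41 above YC (adjusted p = 0.055) and LT 0.30 (adjusted p = 0.27), neither past the threshold, although ST passed when any of 5 single arrays was left out (YC replicate 4, AC replicate 2, AC replicate 5, ST replicate 1 or LT replicate 2) and under 6 of the 14 alternatives: quantile normalization, the robust variance trend, array weights, either covariate and the compared groups alone. The AC and old-group calls held under every alternative that tested Hspb1, which a signal minimum of 100 leaves out, and without any 1 array, with values of 0.52 to 0.72 for AC minus YC and adjusted p of at most 0.044. The lowest of these, 0.52, came without AC replicate 5, the array with the highest Hspb1 signal.

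Markers of other cell types also differed between AC and YC. Of 10 endothelial markers 9 were higher in AC than in YC, with a median of 0.36, and their list score was -0.19 to -0.10 on YC arrays and -0.016 to 0.39 on AC arrays. On ST arrays it was -0.047 to 0.027, and on LT arrays -0.11 to 0.096. Their summed signal was 2358 to 2496 in YC against 2673 to 3414 in AC. Of 14 microglia markers 12 were higher in AC (median 0.49), with scores of -0.35 to -0.25 on YC arrays and -0.0069 to 0.92 on AC arrays, and summed signals of 5861 to 6160 and 7245 to 12645. Microglia scores were -0.046 to 0.39 on ST arrays and -0.037 to 0.28 on LT arrays, all above the YC arrays. Astrocyte markers had 3 of 10 higher past the threshold, but 6 of the 10 had values below 0 and the median was -0.028. Of 8 mural cell markers none passed (median 0.048), with 5 values above 0 and 3 below. Of 9 meninges and fibroblast markers 2 passed as higher and 1 as lower (median 0.14). Their list score was 0.46, 0.58 and 0.45 on AC replicates 3, 4 and 5. It was 0.48 and 0.53 on LT replicates 2 and 5, where Hspb1 was 85 and 65. The part of these cells in the Hspb1 result was not tested, and in bulk tissue more cells of a type and more RNA per cell cannot be told apart. With the 4 choroid-rich arrays left out, Hspb1 was 0.61 above YC in AC (adjusted p = 0.034).

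**Figure D2:**
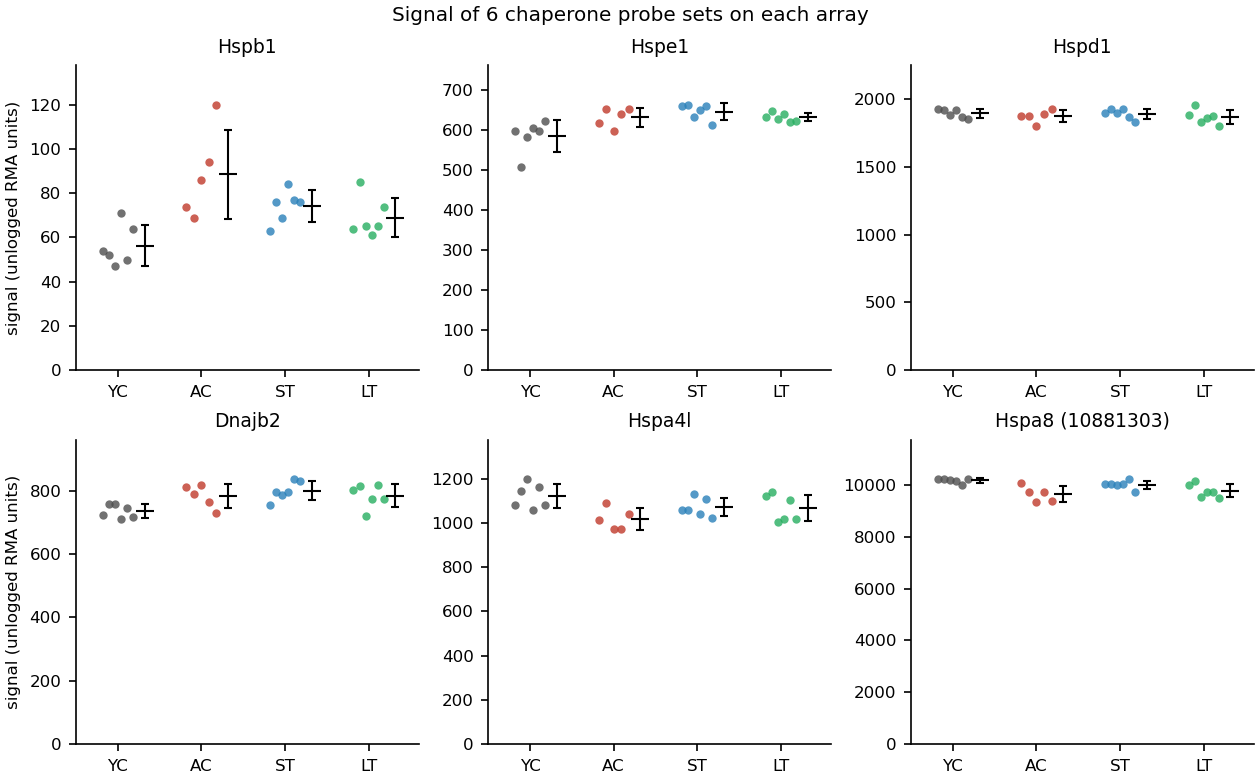
Signal (unlogged RMA units, vertical axes from 0) of 6 chaperone probe sets on each array of YC, AC, ST and LT rats. Points are arrays, and the bars beside them give mean ± SD. Hspb1 is spread from 69 to 120 in AC against 47 to 71 in YC, Hspe1 has 1 low YC array at 509, and the other 4 move by little relative to their level.

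Hspe1 (10923345), the lid, was 509 on the lowest YC array, 597.5 at the median and 624 on the highest. On the AC arrays it was 617, 652, 599, 641 and 654, in ST it ran from 613 through 655.5 to 663, and in LT from 621 through 631.5 to 648. All 17 old arrays lay above 597.5, the YC median, but the groups overlapped: 3 AC, 5 ST and 4 LT arrays exceeded every YC array.

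Hspe1 was 0.12 higher in the old groups together than in YC (standard error 0.032, limma adjusted p = 0.020) and 0.14 higher in ST (standard error 0.038, adjusted p = 0.037, the only probe set of the 67 called in ST, against 4.15% of all and 2.71% higher). AC was 0.11 above YC (adjusted p = 0.078) and LT 0.11 (adjusted p = 0.18). YC replicate 2, at 509, stood apart from the next lowest YC array, 583. Without it Hspe1 passed the threshold in neither comparison, at 0.083 for the old groups together and 0.10 for ST. The old-group call was kept in 12 of 14 alternatives and 22 of 23 fits without 1 array. The ST call was kept in 10 of 15 and 17 of 23, and was also lost without YC replicate 3 or ST replicates 2, 3, 4 or 5.

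Hspd1 (10928154), the chaperonin barrel itself, lies next to Hspe1 on rat chromosome 9, on the opposite strand. The promoter windows of the pair share 211 of their 300 bases, so that the overlapping heat shock elements printed for Hspe1 also lie in the Hspd1 window, the first 242 bases before its start. Hspd1 signals spanned 1855 to 1930 on YC arrays and were 1872, 1872, 1804, 1888 and 1928 on AC arrays. ST arrays spanned 1829 to 1931, and LT arrays 1805 to 1957. For this probe set the groups overlapped throughout. AC differed from YC by -0.018 (95% interval -0.070 to 0.035, adjusted p = 0.69) and the old groups together by -0.014 (-0.056 to 0.027).

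As a description chosen after the values were seen, the log2 ratio of Hspe1 to Hspd1 signal was taken on each array, where any scaling of the array cancels. Relative to its YC mean the ratio was 0.13 higher in AC, 0.15 in ST and 0.13 in LT, and 0.086, 0.10 and 0.090 higher without YC replicate 2. Its SD among YC arrays was 0.12, against 0.031 in AC, 0.035 in ST and 0.028 in LT, and it was 0.049 without YC replicate 2. The level of the ratio has no meaning, since probe sets differ in response. A second Hspd1 probe set (10776667) was lower in AC by 0.079 (adjusted p = 0.21). The 2 Hspd1 probe sets correlated weakly over the arrays (r = 0.22), so the ratio depends on the one used. Without ST replicate 1, and under array weights, an Hspd1 probe set passed as lower than YC in ST and in the old groups together.

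**Figure D3:**
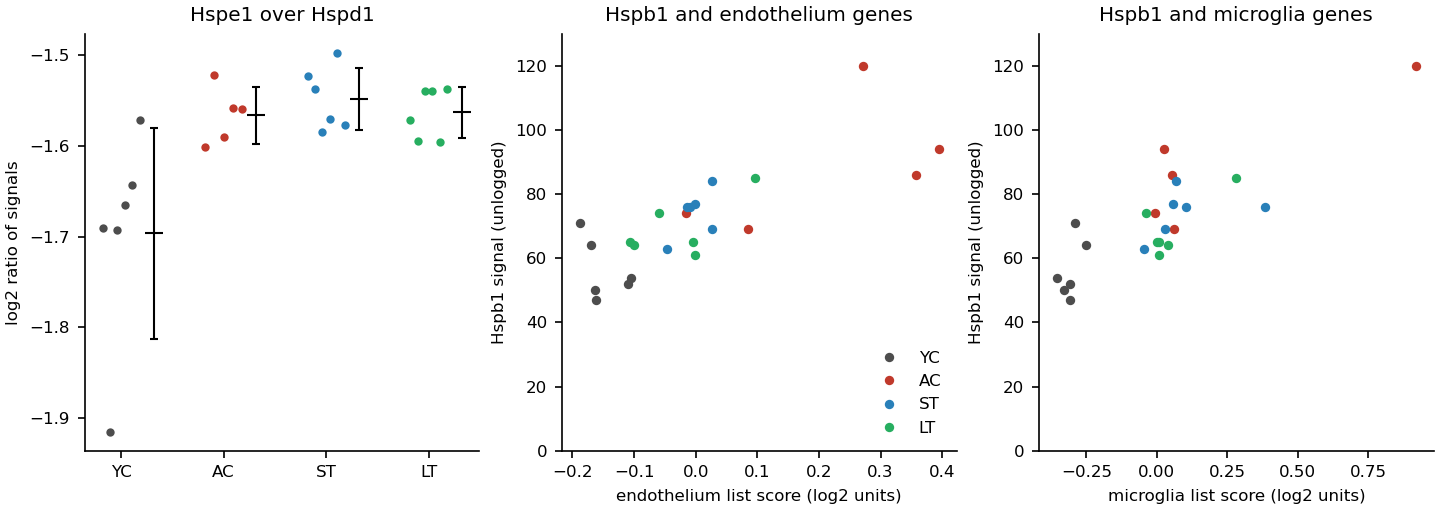
Left, log2 ratio of Hspe1 to Hspd1 signal on each array, with mean ± SD: the old arrays lie close together and YC replicate 2 is lowest. Middle and right, Hspb1 signal (unlogged, from 0) against the endothelium and microglia list scores (log2 units) of the same array, where AC replicates 3, 4 and 5 have the highest Hspb1 signals, 86, 94 and 120, and AC replicate 5 also has the highest microglia score.

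Among the Hsp70 and Hsp110 genes 11 were tested, and 1, Hspa4l, was lower in AC by its best measured probe set. Hspa4l (10815099) is an Hsp110 relative that acts as a nucleotide exchange factor for Hsp70. It ran from 1057 through a median of 1114 to 1198 in YC and was 1015, 1090, 971, 974 and 1040 in AC. It ran from 1023 through 1060.5 to 1130 in ST and from 1003 through 1061 to 1141 in LT. In AC 4 of 5 arrays lay below every YC array, and ST and LT overlapped both.

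Hspa4l fell by 0.14 on the log2 scale in AC (standard error 0.043, limma adjusted p = 0.045). This call sat at the threshold: it was kept in 9 of 15 alternatives and 14 of 23 fits that left out 1 array, and it did not pass without the 4 choroid-rich arrays (-0.097, adjusted p = 0.25). Among single arrays it was lost without YC replicates 2, 3, 5 or 6, AC replicates 1, 3 or 4, or ST replicates 2 or 4. With RNA integrity number as a covariate this call and that of Hspa8 described next were both lost. Its RefSeq promoter window held 1 short element after the start, tggtatagTTCCTGAAatgt at chr2:125668376-125668395 on the plus strand of GRCr8.

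Hspa8 (Hsc70), the constitutive Hsp70 that also strips clathrin from synaptic vesicles, had 8 probe sets on the array. They moved together from array to array (pairwise r of 0.82 to 0.99 over the same 23 arrays), and they may share target sequence, so they are not independent measures of the gene. All 8 were lower in AC than in YC, by 0.045 to 0.078. Probe set 10881303 was 10010 on the lowest, 10206 at the median and 10215 on the highest YC array. On the AC arrays it was 10054, 9726, 9329, 9719 and 9367. ST ran from 9727 through 10020 to 10207 and LT from 9508 through 9718.5 to 10137.

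That probe set fell by 0.078 in AC (limma adjusted p = 0.049), with 4 of 5 AC and 5 of 6 LT arrays below every YC array. Its call was kept in 2 of the 23 fits without 1 array, those without AC replicate 1 and LT replicate 2. The probe set with the highest signal (10937827) was 0.045 lower (adjusted p = 0.20). The lowest AC arrays for probe set 10881303 were replicates 3 and 5, the former high in choroid plexus genes and the latter in microglia genes, and without the choroid-rich arrays the call did not pass; their part was not tested.

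**Figure D4:**
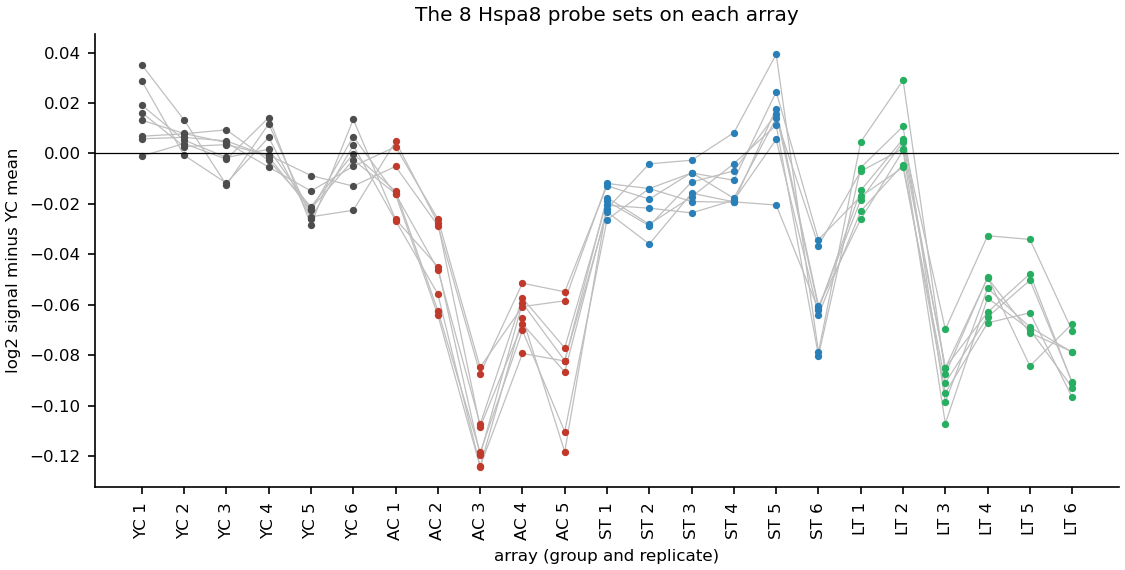
The 8 Hspa8 probe sets on each of the 23 arrays, as log2 signal minus the mean of the YC arrays (vertical axis), with a grey line for each probe set. The lines run close together across arrays, and 6 of the 8 are lowest on AC replicate 3 while the other 2 are lowest on an LT array.

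Other Hsp70 genes passed no adjusted threshold in the main fit. Hspa5 (BiP), the Hsp70 of the endoplasmic reticulum, was -0.056 from YC in AC (95% interval -0.18 to 0.070), Hsph1 (Hsp110) -0.033 (-0.11 to 0.048) and Hspa4 -0.033. Hspa2, the family member best known from spermatocytes, was at 0.14 (adjusted p = 0.25). Without the arrays with a choroid plexus score over 0.5, Hspa5 passed as lower than YC in LT and in the old groups together. Without AC replicate 5, Hspa12a passed as lower than YC in AC and in the old groups together. Under array weights Hspa12a also passed as lower in the old groups together. The inducible Hspa1a and Hspa1b share their probe set with Hspa1l, so by the rule of a single symbol they have no value here.

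Of the 3 Hsp90 genes none passed. Hsp90ab1, the constitutive cytosolic form, averaged 7339 ± 129 (SD, n = 6) in YC and 7095 ± 217 (SD, n = 5) in AC, a difference of -0.049 (95% interval -0.099 to 0.00096, adjusted p = 0.19). Hsp90aa1, the inducible form, differed by -0.036 (-0.10 to 0.031). Hsp90b1 (Grp94), of the endoplasmic reticulum, differed by 0.055 (-0.035 to 0.14).

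The small heat shock genes varied most. Hspb8, a partner of the cochaperone Bag3 in selective autophagy, was 0.21 above YC in AC (adjusted p = 0.12). Hspb6 (Hsp20) was 620, 720, 681, 594, 592 and 598 on the YC arrays and 548, 664, 528, 531 and 453 on the AC arrays, a difference of -0.23 (adjusted p = 0.060) with 4 of 5 AC arrays below every YC array, and it passed without AC replicate 2 (-0.30, adjusted p = 0.011). Hspb2 was at -0.23 (adjusted p = 0.17) and Hspb3 at -0.28 (adjusted p = 0.091), both at signals near 100 or less, and Hspb3 had a single AC array at 33 against 56 to 59 on the other 4. Thus 1 of 6 small heat shock genes passed, 2 had values above 0 and 4 below.

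Of the DnaJ genes, 4 DnaJA, 10 DnaJB and 22 DnaJC genes were tested, and none passed in AC against YC. Dnajb2, a neuronal DnaJ that hands ubiquitinated clients to the proteasome, passed against the old groups together. It ran from 709 through 734 to 759 in YC, was 812, 790, 819, 764 and 729 in AC, and ran from 754 through 795.5 to 836 in ST and from 720 through 788.5 to 817 in LT. In AC 4 of 5 and in ST and LT 5 of 6 arrays lay above every YC array. The old groups were 0.10 above YC (standard error 0.030, limma adjusted p = 0.038), a call kept in 8 of 14 alternatives and 15 of 23 fits without 1 array, and it was lost when any of the 6 YC arrays, AC replicate 3, ST replicate 6 or the choroid-rich arrays were left out. Without AC replicate 5 it also passed for AC alone (0.12, adjusted p = 0.047).

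Dnaja1, the main cytosolic partner of Hsc70, ran from 2357 to 2523 in YC and was 2251, 2211, 2185, 2350 and 2471 in AC, a difference of -0.097 (adjusted p = 0.11) that passed without AC replicate 5 (-0.12, adjusted p = 0.035). Dnajc16, a membrane protein of the endoplasmic reticulum, was 773 or more on all YC arrays and 764 or less on all 6 LT arrays, a difference of -0.10 for LT (standard error 0.028, adjusted p = 0.083, and 0.046 without AC replicate 5). In LT against YC no chaperone passed in limma, against 1.03% of all. At an unadjusted p under 0.05 there were 13 (13.4% of all), 10 of them lower (6.17% of all) and 3 higher (7.22% of all). The methods' one-way analysis with Fisher's LSD, adjusted over all tested probe sets as limma was, gave 0. Dnajb5 was at -0.17 in AC (adjusted p = 0.19, and 0.048 without AC replicate 1), with AC replicate 5 at 953 against 1367 to 1629 on the other AC arrays, and Dnajb9 (ERdj4), induced by the unfolded protein response, at -0.091 (adjusted p = 0.15). In the other direction Dnajc3 (p58IPK), an inhibitor of the PERK kinase, was at 0.15 (adjusted p = 0.11). Like Dnajc16, Dnajb5 had all 6 LT arrays, at 1341 to 1429, below every YC array, the lowest at 1461. Its difference of LT from YC was -0.13, the lowest of the 58 genes, and passed with the compared groups alone.

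Dnaja2, a second cytosolic partner of Hsc70, was at -0.0029 in AC (95% interval -0.056 to 0.050), and Dnajc10 (ERdj5), a disulfide reductase of the endoplasmic reticulum, at 0.0099 (-0.043 to 0.062). The intervals of Dnaja3, the mitochondrial DnaJ, at -0.045 and of Dnaja4 at 0.079 also took in 0. Dnajb12, a membrane DnaJ of the reticulum whose 2 probe sets held identical values, was at 0.057 (0.00013 to 0.11, adjusted p = 0.18). Dnajb4 was at -0.062 (-0.12 to -0.00075, adjusted p = 0.18), and Dnajb3, with signals of 71 to 88 on all arrays, at 0.0052.

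Of 10 listed genes known to rise in a heat shock response 8 were tested, each by its brightest probe set. In AC against YC 1 (Hspb1) was higher, against 5.33% of all 12604 genes tested, and none lower, against 4.27%. The Hspa8 probe set called lower in AC is not its brightest and is not counted here. In the old groups together 2 of the 8 were higher, Hspb1 and Hspe1, against 4.95% of all genes. The median of the 8 in AC was -0.034, against -0.0074 over all genes tested. Dnajb1 (Hsp40), a strong target of Hsf1, ran from 327 to 355 in YC and was 330, 337, 337, 317 and 348 in AC, a difference of -0.037 (95% interval -0.11 to 0.040). The 5 genes with an element of 3 units ranged from -0.097 to 0.11 (median -0.033), and the 3 with the reticulum element from -0.056 to 0.15 (median 0.055). Of 9 reticulum members and 7 mitochondrial members tested, none passed in AC against YC. The 3 measured genes that serve clathrin and synaptic vesicles, Hspa8, Dnajc5 (cysteine string protein) and Dnajc6 (auxilin), ranged from -0.045 to -0.011.

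Most differences in this family were small and tightly bounded. The median SD within groups was 0.064 log2 units over the 67 probe sets, against 0.093 over all tested. For AC minus YC the whole 95% interval lay within 0.2 log2 units of 0 for 49 of 67, or 73.1%, against 53.6% of all tested. The 67 probe sets were brighter, with a median signal of 770 against 296 over all tested, and the shares were not matched for brightness. The 67 also include the 8 Hspa8 probe sets and both identical Dnajb12 probe sets. The median difference of the 67 was -0.036, against -0.0062 over all, and 45 of the 67 were below 0, a count that includes the 8 Hspa8 probe sets. By gene, 37 of 58 were below 0. The number of calls depended on scaling: with array medians made equal, which shifted all differences between AC and YC by a median of -0.031, 15 probe sets passed, 1 higher and 14 lower, in place of 1 higher and 2 lower. Of those 14, 7 were Hspa8 probe sets. For the old groups together the split changed from 3 higher and 0 lower to 1 higher and 10 lower, with Hspb1 the only higher gene. Calls over all tested probe sets under this scaling are not given here, so these counts have no background share beside them.

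**Figure D5:**
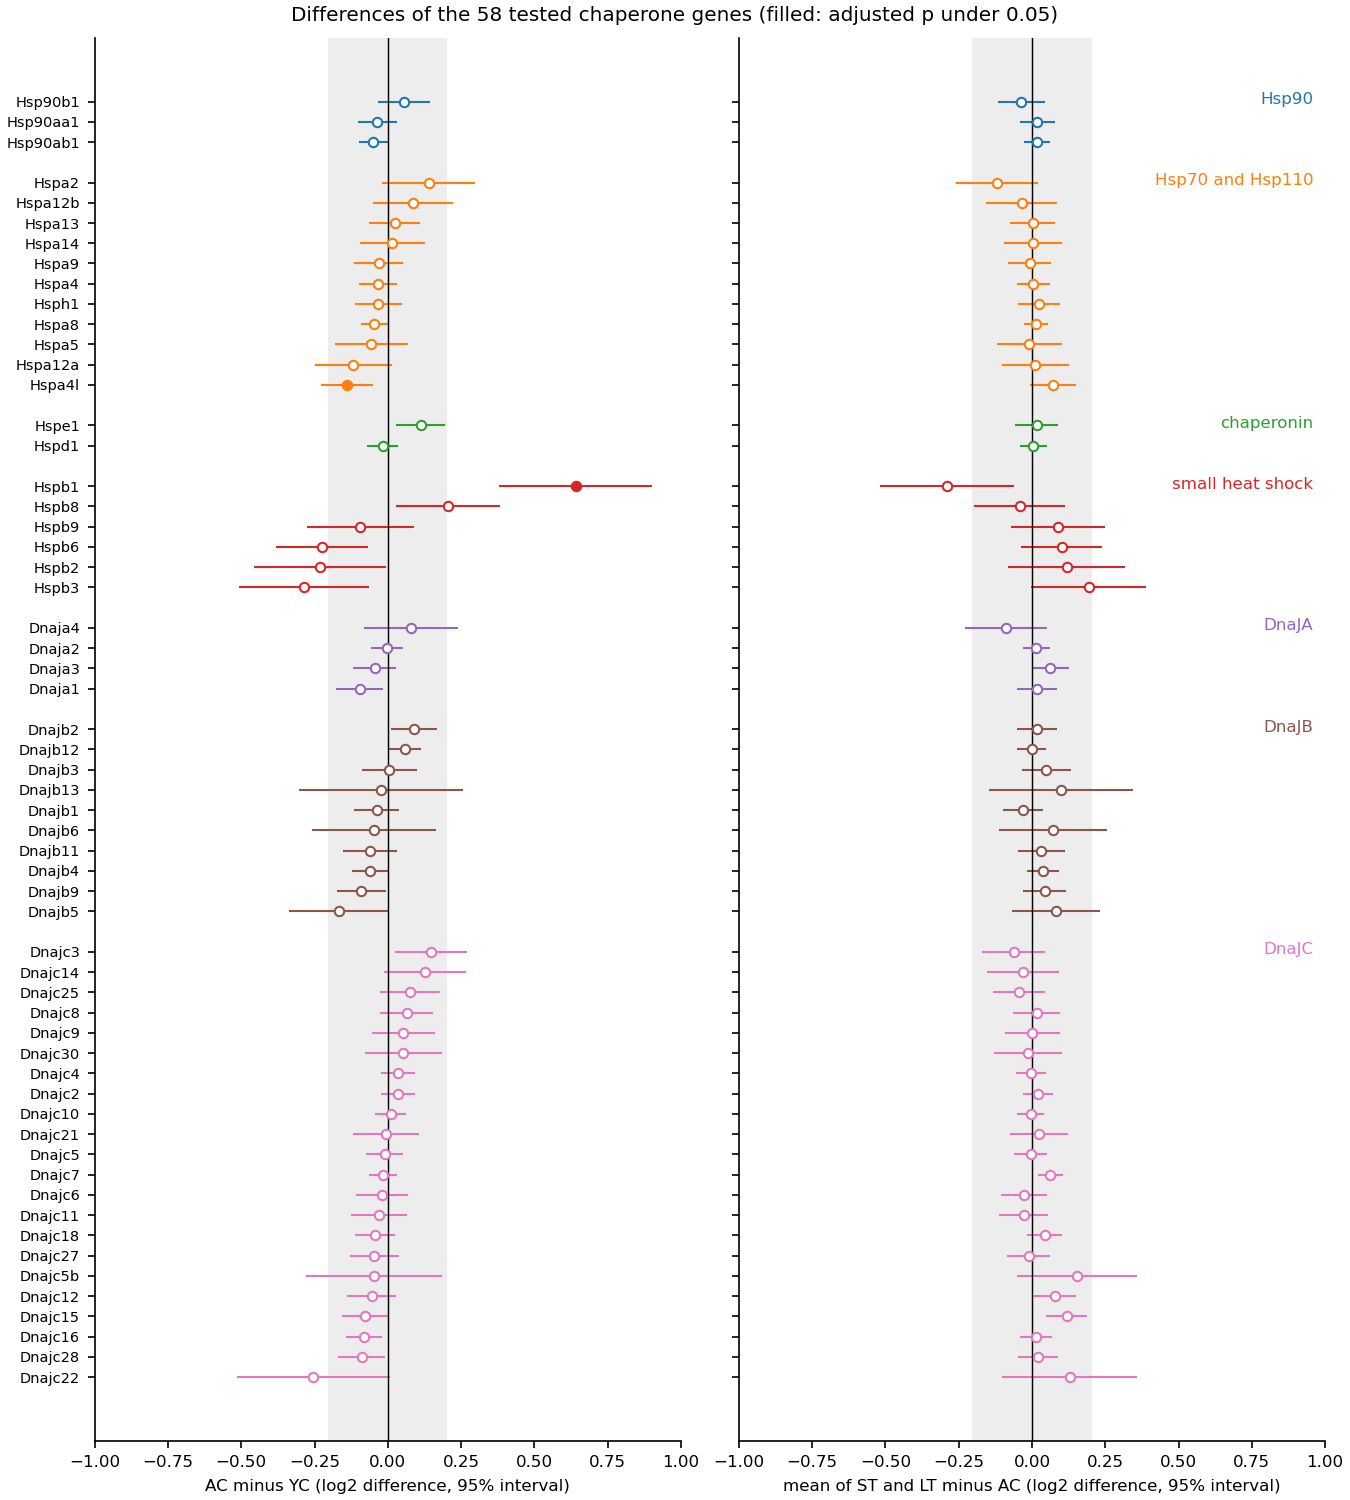
Log2 difference with 95% interval for each of the 58 tested genes (the probe set with the highest mean signal), grouped by class, for AC minus YC on the left and the mean of ST and LT minus AC on the right. Filled points passed an adjusted p of 0.05 and the grey band marks 0.2 log2 units on each side of 0; only Hspb1 at 0.64 and Hspa4l at -0.14 are filled, both on the left.

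FKBP1b overexpression was examined as ST, LT and their mean against AC. These comparisons share the AC arrays with the aging comparison, so the values of both rest in part on the same 5 animals. No chaperone passed in any of them. By limma the counts were 0 of 67 in ST (against 0% of all), 0 in LT (0.075% of all) and 0 for both FKBP1b groups together (0.03% of all). The methods' one-way analysis with Fisher's LSD, adjusted in the same way, also gave 0 in each. At an unadjusted p under 0.05 there were 6 in ST (9.82% of all), all higher (4.91% of all), 2 in LT (12.6% of all) and 4 for the groups together (10.5% of all).

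Hspb1 was 0.23 lower in ST than in AC (95% interval -0.49 to 0.026, adjusted p = 0.56) and 0.34 lower in LT (-0.60 to -0.082, adjusted p = 0.25). Together the FKBP1b groups were 0.29 below AC (-0.52 to -0.060, adjusted p = 0.35). Without AC replicate 5 the Hspb1 differences were smaller, -0.12 for ST, -0.23 for LT and -0.17 for the groups together. In LT 4 of 6 arrays and in ST 1 of 6 lay below every AC array.

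Dnajc15, a mitochondrial inner membrane DnaJ, had the smallest p of the family when the FKBP1b groups together were set against AC. It was 1087, 975, 983, 1044 and 980 in AC, ran from 1032 through 1105 to 1135 in ST and 1038 through 1116.5 to 1153 in LT, and in each group 4 of 6 arrays lay above every AC array. The difference was 0.12 (standard error 0.034, adjusted p = 0.20), and it passed only without AC replicate 1 (0.14, adjusted p = 0.049). Dnajc7, a tetratricopeptide protein that links Hsp70 and Hsp90, was 0.063 above AC (adjusted p = 0.27). Hspe1 was at 0.016 (-0.058 to 0.090), Dnajb2 at 0.016, Hspa4l at 0.071 (-0.0075 to 0.15) and Dnajb1 at -0.030.

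For the FKBP1b groups together against AC the whole interval lay within 0.2 log2 units of 0 for 55 of the 67 probe sets, or 82.1%, against 70.5% of all tested. Brightness was not matched here either. In ST 55 of the 67 values were above those of AC, with a median of 0.036 (all tested 0.010), and 47 were under quantile normalization. In LT the median was 5.7e-05, with 34 of the 67 probe sets above AC, or 27 of 58 by gene. LT against ST gave 0 of 67 past the threshold (0.0075% of all) and 6 at an unadjusted p under 0.05 (12.4% of all), all lower in LT (7.45% of all). The methods' one-way analysis, adjusted as limma was, gave 0. The 2 FKBP1b groups, with 3 and 9 months of exposure by the labels, were thus not shown to differ in any chaperone.

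The wider chaperone network was read from lists. Of 44 heat shock factors and cochaperones 39 were tested, and in AC against YC 3 rose (7.69%, against 5.33% of all genes tested) and none fell (4.27% of all genes). They were Hscb, a mitochondrial J protein for iron-sulfur cluster assembly (0.21, limma adjusted p = 0.025), Cdc37, which loads kinases onto Hsp90 (0.15, adjusted p = 0.028), and Sil1, an exchange factor of BiP (0.19, adjusted p = 0.016). Hsf1 itself was at -0.066 (adjusted p = 0.26). The list's median was -0.015, against -0.0074 over all genes.

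With the FKBP1b groups together against AC, none of the 39 passed; Sil1 was at -0.15 (adjusted p = 0.18). Of 12 tested cytosolic chaperonin and prefoldin genes none passed in AC against YC, and Pfdn5, a prefoldin subunit, was 0.083 higher in the old groups together (adjusted p = 0.045). Of 19 tested folding and unfolded protein response genes of the endoplasmic reticulum none passed in these 3 comparisons. Cryab, a small heat shock protein outside the symbol rule whose annotation overlaps that of Hspb2, was at 0.11 in AC (adjusted p = 0.63).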

How the data were processed

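RNA of 23 dorsal hippocampi was measured on 1 array each, and each array took its group from the labels. The authors deposited signal intensity values per probe set, made with the Robust Multiarray Average algorithm in Partek (versions not given in the sources used here). They are unlogged, rounded and have 758 blank cells, none in a chaperone, and were used as deposited. Gene names came from the array's annotation, in which 15307 probe sets carry 1 symbol, 323 several and 13581 none.

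Log2 signals of the 13339 probe sets with 1 symbol that reached 40 on 4 or more arrays were fitted with limma 3.58.1 in R 4.3.3, with 1 mean per group over all 23 arrays, with Benjamini-Hochberg adjustment over all of them and a threshold of 0.05. The fit was tested on simulated data. A gene with several probe sets is represented by its brightest. Genes named are those called in any comparison, in each class the 3 with the highest signal and the 2 with the smallest p in AC against YC and for FKBP1b, and the stress-inducible list. Members and lists were chosen with earlier results of these data known. Promoters came from RefSeq (GRCr8) by gene ID; Python 3.11.15 scripts counted motifs on both strands. The array annotation names no build, so no probe set coordinates are given.

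Alternatives were other scalings (array medians made equal, quantile), no signal minimum, a minimum of 100, all probe sets, values over 2 SD set to missing, the methods' one-way analysis with LSD, a robust variance trend, array weights, RNA integrity number or choroid plexus score as a covariate, a block for the replicate number, only the groups compared, and leaving out choroid-rich arrays or each array in turn. Leaving out arrays with a choroid plexus score over 1, and the ratio of Hspe1 to Hspd1, were chosen after seeing the data. The one-way analysis with LSD was adjusted as limma was, whereas the study's methods apply it unadjusted after a test across the 4 groups. The number of arrays limits the precision.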

Additional observations from a re-analysis of the deposited data

Results flagged for a closer look

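In 44 sets of values (11 probe sets in 4 groups), 3 held an array farther from its group than Dixon's 95% limit allows, where chance gives about 1 in 20. Hspe1 was 509 on YC replicate 2, with the next lowest YC array at 583, and both Hspe1 calls were lost without it (the ST call also without other arrays, as given above). Hsph1 was 1605 on ST replicate 6, with the next lowest ST array at 1749. Hspa8 (probe set 10881303) was 10010 on YC replicate 5, with the next lowest YC array at 10159.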

How the results depend on the processing

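Counts of chaperone probe sets called, of 67, moved with the settings as follows, and no called value changed sign. The calls over all tested probe sets under each setting are not given here. The counts therefore do not show whether chaperones moved more than other genes. For AC against YC (3 called) there were 15 with array medians equal, 6 with quantile normalization, 7 each with the one-way analysis and LSD, the robust variance trend and array weights, and 1 each with no signal minimum, the choroid plexus covariate, the compared groups alone, or without arrays with a choroid plexus score over 0.5 or over 1 (the latter chosen after seeing the data). For ST against YC (1 called) there were 0 with array medians equal or without scores over 0.5, 2 with a signal minimum of 100 or the compared groups alone, 3 with the robust trend or RNA integrity number, 4 with LSD or the choroid plexus covariate, and 11 with array weights. LT against YC (0 called) gave 1 with array weights, the compared groups alone, or without scores over 0.5. The old groups together (3 called) gave 11 with array medians equal, 7 with LSD or the robust trend, 17 with array weights and 5 with RNA integrity number. The F test (1 called) gave 2 with array medians equal, RNA integrity number or the choroid plexus covariate, 3 with LSD or the robust trend, and 0 with a minimum of 100. Without each array in turn the counts were 1 to 6 for AC, 0 to 4 for ST and 0 to 1 for LT against YC, 1 to 7 for the old groups, 1 to 2 for F, 0 to 1 for both FKBP1b groups against AC, and 0 in the other comparisons. The cause was not tested. With the replicate number as a block, 4 were called for AC against YC, 0 for ST against YC and 3 for the old groups. The numbers do not pair the animals: 7 of 33 same-numbered pairs had correlated deviations over 0.1 (range -0.38 to 0.20), and 2 of 23 arrays correlated best with their own number. With 5 or 6 arrays a group, small differences in dim probe sets such as those of the small heat shock genes are the least certain.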
